A study of Homo sapiens with 2 samples.

Results

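The 9 genes described here encode laminin chains: LAMA1, LAMA2, LAMA3, LAMA4, LAMA5, LAMB1, LAMB2, LAMB3 and LAMC1. They were picked by gene name from 36953 genes annotated in both libraries, and they make up 9 of the 12 laminin chain genes of that annotation. The set, and the attention given to LAMA3, were chosen on values measured in these same 2 libraries, so the LAMA3 pattern below is a description and carries no test. Polyadenylated RNA of 2 established human colorectal cancer lines was sequenced, with 1 library per line. MIP101 is sensitive to 5-fluorouracil (5-FU), a pyrimidine analogue used against colorectal cancer. MIP/5FU is a resistant clone that was selected from MIP101 by passage in rising amounts of the drug, and its IC50 for 5-FU was 10-fold that of its parent. MIP/5FU was kept in 5 µM 5-FU, whereas both lines were grown without drug or antibiotics for about 48 hours before RNA was taken. The resistant line is a single clone, so differences that arose by clonal choice and those tied to resistance cannot be told apart. No gene has a replicate value, and every interval below covers counting error only, with reads taken as independent.

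Laminins are large secreted heterotrimers of an alpha, a beta and a gamma chain, and they form the sheet on which basement membranes are built. The alpha chain carries the globular domains that bind integrins and dystroglycan, while the beta and gamma chains are joined to it through a coiled coil. In gut epithelium the alpha chain of LAMA5 is a main component of the basement membrane under the cells. The alpha chain of LAMA3, paired with the beta chain of LAMB3, belongs to the anchoring laminin of hemidesmosomes. LAMA3 is known for making a long and a short chain from separate start sites: the long form carries an additional N-terminal part, and both share the C-terminal coiled coil and globular domains.

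The LAMA3 forms differ at 1 splice point, and the sequences across it are shown because reads over these bases tell the forms apart. In the annotation used by the authors (Ensembl release 53, build hg18), LAMA3 lies on the forward strand of chromosome 18, from 19523560 to 19789025, in 77 exons. The long transcript ENST00000313654 joins exon 39 to exon 41. The short transcript ENST00000269217 starts in exon 40, which lies in an intron of the long form at 19707004 to 19707177, and joins it to exon 41. The 31 bases on each side of both joins are given 5′ to 3′ from the GENCODE release 29 transcripts (GRCh38), with exon 41, common to both forms, in capitals.
Long form, exon 39 to exon 41: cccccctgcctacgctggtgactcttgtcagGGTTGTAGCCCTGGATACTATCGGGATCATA
Short form, exon 40 to exon 41: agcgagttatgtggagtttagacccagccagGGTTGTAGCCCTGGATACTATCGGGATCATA
On GRCh38 the long form joins base 23871661 and the short form joins base 23873215 to base 23876294. The lengths of all 37 long-form exons compared and of 36 shared exons were the same in both annotations. The 171 coding bases of exon 40 are shown next, since they are found in the short form alone, with the start codon in capitals.
Coding part of exon 40: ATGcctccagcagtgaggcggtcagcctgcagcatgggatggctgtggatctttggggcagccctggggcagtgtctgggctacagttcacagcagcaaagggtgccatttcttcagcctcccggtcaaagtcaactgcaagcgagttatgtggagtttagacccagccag

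The RefSeq promoter table (GRCh38.p14) gives for LAMA3 the start of the short form, at base 23873020 of chromosome 18. Its window of 250 bases before and 50 bases after that start was searched for the AP-1 motif TGANTCA, which reads the same way on both strands, and for TATAA on both strands. The window holds 2 AP-1 matches, 125 and 69 bases upstream of the start, and 1 TATAA match 30 bases upstream. They are shown with 10 bases on each side and the match in capitals, because exon 40 is the LAMA3 exon with the highest ratio in the resistant line. A link between the matches and that ratio was not tested. No matches are given for the start of the long form, so these do not set the forms apart.
AP-1 match at chr18:23872885-23872911: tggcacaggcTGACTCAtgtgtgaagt
AP-1 match at chr18:23872941-23872967: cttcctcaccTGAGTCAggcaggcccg
TATAA match at chr18:23872980-23873004: gaagggcaggTATAAgaggaagagg
Of 35116 promoters in the table, 7.71% hold the AP-1 motif, 0.515% hold it at least 2 times and 20.4% hold TATAA. Of the laminin genes, 8 have an entry and LAMA1 has none. LAMB3 was the other laminin gene with an AP-1 match. GENCODE starts the short transcript 180 bases further upstream, so all 3 matches lie inside its first exon there. The matches describe letters and not bound sites.

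The libraries held 200141071 reads on genes in MIP101 and 109693681 in MIP/5FU. Each ratio divides a gene's share of all gene reads in MIP/5FU by its share in MIP101, with 0.5 reads added to both counts, and is given on the log2 scale. The median over 15382 genes with at least 100 reads was 0.03, and 83.2% of them lay within 1.5-fold. Colon epithelial markers were detected: all 12 annotated genes of that list had at least 100 reads over both libraries. They summed to 8215 RPM (reads scaled to library size) in MIP101 and 8989 in MIP/5FU. Some were low: CDX1 had 95 and 52 reads, CEACAM5 251 and 216 and LGALS4 358 and 79. Most of the summed RPM was KRT8 and KRT18. Single markers differed: KRT20 was 6.77-fold higher in MIP/5FU, VIL1 2.34-fold lower and LGALS4 2.47-fold lower. In a bulk library, fewer cells of a type and less RNA per cell cannot be told apart. A gene was counted as higher or lower where it had at least 100 reads, differed by at least 2-fold and had a 95% interval excluding no difference.

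Of the 9 laminin genes, 1 was counted lower in MIP/5FU and 0 were counted higher. Among all genes tested 3.09% were counted lower and 2.53% higher, so the members' counts are near the background. Their median log2 ratio was -0.06, beside 0.03 over all genes. The order of the levels per exon length was the same in both lines, from LAMA5 through LAMB1, LAMB2, LAMB3, LAMC1, LAMA3, LAMA1 and LAMA4 to LAMA2. Within each library, no 2 neighbours in that order had overlapping 95% counting intervals. The place of LAMA4 above LAMA2 rests on its last exon region, with 93.2% of its coverage in MIP101 and 98.4% in MIP/5FU. Levels spanned from 41.6 to 0.0540 RPKM, the read count scaled to exon length and library size, in MIP101.

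**Figure D1:**
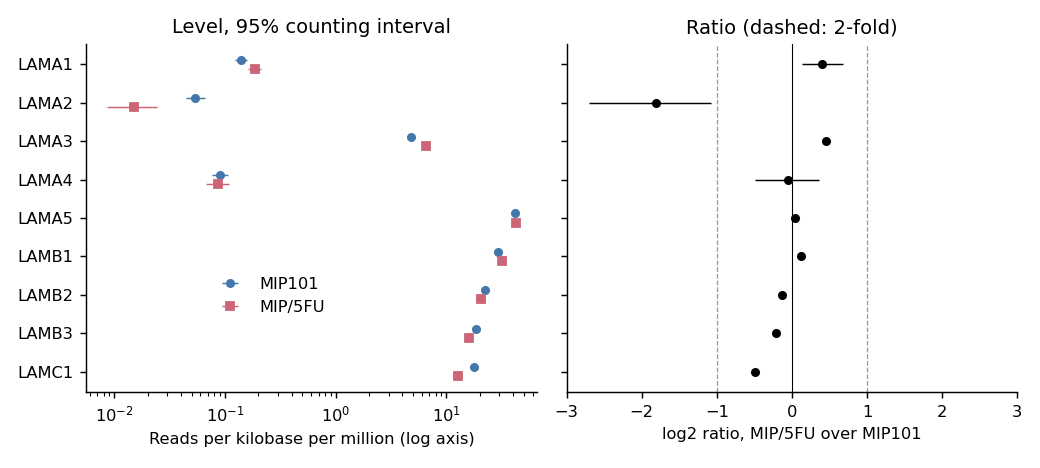
Left, level of each laminin gene in RPKM on a log axis for MIP101 (circles) and MIP/5FU (squares), with 95% counting intervals. Right, log2 ratio of MIP/5FU over MIP101 with its 95% counting interval and dashed lines at 2-fold. LAMA2, at 0.0540 and 0.0150 RPKM, is the gene beyond 2-fold.

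Among the alpha chains, LAMA5 was the most abundant, with 96658 reads in the parent and 54268 in the clone. Its level was 41.6 RPKM in the parent and 42.7 in the clone. Its log2 ratio was 0.03 (95% interval 0.02 to 0.05), and it became -0.01 when edgeR's TMM factors set the scale, so no direction is given for it. LAMA5 held 89.1% of the normalized coverage of the 5 alpha chains in MIP101 and 86.1% in MIP/5FU. Normalized coverage is the authors' mean read depth per base, scaled between libraries.

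LAMA3 had 10266 reads in the parent and 7713 in the clone, or 4.75 and 6.51 RPKM. The gene as a whole was 1.37-fold higher in the resistant line (1.33 to 1.41), which is under the 2-fold limit. Its share of alpha chain coverage was 10.3% in MIP101 and 13.3% in MIP/5FU. The gene-level ratio, level and share average over all exons, including those of the long form alone. These averages join exons whose ratios lay on opposite sides of 0, as described below. The exons common to both forms had a coverage of 56.5 and 101.7 per base, beside 41.3 and 55.7 over all exons. Over those common exons LAMA3 was 1.83-fold higher in the clone (1.77 to 1.89). The LAMA5 share, taken of the same sum, carries the same limit.

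The other 3 alpha chains were near the limit of detection, and the authors' deposited tables mark each of them as not expressed in both lines. LAMA1, the alpha chain of the early embryo, had 273 and 198 reads, or 0.140 and 0.186 RPKM, and reads fell on 58 of its 69 exon regions in MIP101 and 57 in MIP/5FU. Its log2 ratio was 0.41 (0.13 to 0.67). LAMA2, the alpha chain of the muscle basement membrane, had 105 reads in the parent and 16 in the clone, which made it 3.50-fold lower (2.11 to 6.52). It was the only laminin gene counted, and its reads were spread over 42 of 68 exon regions in MIP101 and 14 in MIP/5FU.

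LAMA4, the alpha chain typical of vessel walls, had 139 and 73 reads, and its log2 ratio was -0.06 (-0.49 to 0.36). In MIP101 93.2% of its coverage, and in MIP/5FU 98.4%, lay in its last exon region, 1652 bases on chromosome 6 from 112535827 to 112537478 (hg18). Its annotated junctions held 1 read in MIP101 and 0 in MIP/5FU. LAMA4 RNA that spans exons was therefore not detectable at this depth in the clone, where 3 reads would be the limit that a count of 0 allows.

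Markers of cells that make LAMA2 and LAMA4 were looked at beside these values. Of 11 fibroblast and smooth muscle markers, 5 had at least 100 reads, and their sum was 27.2 RPM in MIP101 and 27.8 in MIP/5FU. The sum joins opposite differences: COL3A1 was at 8.29 and 0.346 RPM, ACTA2 at 4.82 and 9.13 and PDGFRB at 12.3 and 16.3. COL1A2, DCN, DES, LUM and PDGFRA were at 0 reads in both lines, and 1 marker was counted lower, COL3A1, with 1659 and 38 reads. Of 8 endothelial markers 2 had at least 100 reads, the sum was 5.63 and 8.09 RPM, and CDH5 was at 0 in both. Most of that sum was CLDN5, at 3.48 and 4.36 RPM, and ESAM, at 1.95 and 3.61. PECAM1 had 10 and 0 reads, VWF 17 and 4 and TEK 9 and 2, while TIE1 had 3 and 5 and KDR 0 and 2. The part of other cell types in the LAMA2 value was not tested.

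Among the beta chains, LAMB1, the beta chain of most laminins, had 37670 reads in the parent and 22516 in the clone, at 29.1 and 31.8 RPKM. LAMB2, the beta chain of vessel, kidney and synaptic laminins, had 26059 and 13032 reads, at 22.4 and 20.5 RPKM. LAMB3, the partner of the LAMA3 chain, had 16619 and 7831 reads, at 18.5 and 15.9 RPKM. Their log2 ratios were 0.13, -0.13 and -0.22, each within 1.2-fold of equal and none counted. LAMB1 was thus slightly higher in the clone and the other 2 slightly lower. LAMB1 held 41.7% of the coverage of these 3 beta chains in MIP101 and 46.8% in MIP/5FU, while LAMB3 held 26.4% and 23.3%.

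LAMC1, the gamma chain of most laminins, had 28045 reads in the parent and 10949 in the clone, at 17.8 and 12.7 RPKM. It was 1.40-fold lower in the clone (1.37 to 1.44), the lowest ratio of the 6 laminin genes above 1 RPKM. Coverage of LAMA5 was 2.31 times that of LAMC1 in MIP101 and 3.32 times in MIP/5FU, and coverage of LAMB1 was 1.64 and 2.50 times that of LAMC1. The alpha and beta chain RNAs named here were thus in larger excess over LAMC1 in the clone.

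A clone can differ from its parent in the copy number of chromosome segments, which was not measured here, so each ratio was set beside the 40 nearest tested protein-coding genes. LAMC1 at -0.49 lay beside a neighbourhood median of -0.38, and 15 of its 40 neighbours had a lower ratio. LAMA1 at 0.41 lay beside 0.39, and 22 neighbours were lower. LAMB2 and LAMB3 had neighbourhood medians of -0.30 and -0.34, below their own ratios of -0.13 and -0.22. LAMA5 and LAMB1 had medians of 0.19 and -0.03. LAMA2 at -1.81 lay beside a median of -0.27 with 0 of 40 neighbours lower, and LAMA4 lay beside -0.29. LAMA3 at 0.46 lay beside 0.09, with 39 of 40 neighbours lower. That LAMA3 ratio is the whole-gene average over exons that differed in opposite directions.

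Along LAMA3 the lines differed in opposite directions on the 2 sides of exon 40. The exon regions 5′ of it, which belong to the long form alone, were lower in the resistant line. Exon 40 and the exons after it were higher. Exon region files hold coverage and no read counts, so coverage was divided by the mean bases per read (40.4 in MIP101, 39.8 in MIP/5FU) to give read equivalents.

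**Figure D2:**
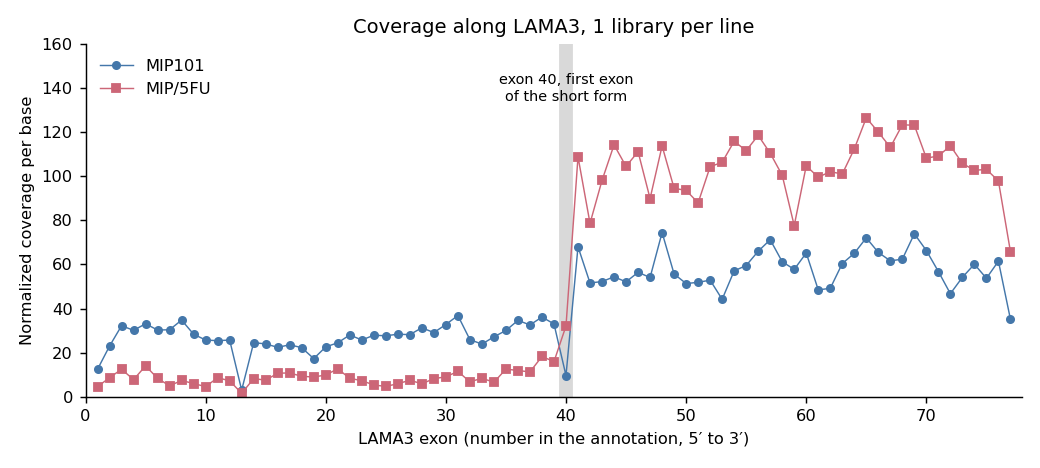
Normalized coverage per base of each LAMA3 exon in annotation order, MIP101 as circles and MIP/5FU as squares, 1 library each, with exon 40 shaded. MIP/5FU lies below MIP101 over exons 1 to 39 and above it from exon 40 on.

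The 38 exon regions found only in the long form hold 5084 bases, from 19523560 to 19705623. They had 3180 read equivalents in MIP101 and 572 in MIP/5FU, or a normalized coverage of 27.1 and 8.75 per base. The block was 3.05-fold lower in the resistant line (2.79 to 3.34). The log2 ratio of single regions ran from -2.50 in exon 7 to -0.88 in exon 19, so every one of these 38 regions was lower in MIP/5FU. The intervals of 2 of them, exons 17 and 19, took in 0. The first exon of the long form, 380 bases of which 294 are coding, had a coverage of 12.5 in MIP101 and 4.60 in MIP/5FU, which was 2.62-fold lower (1.68 to 4.41).

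Exon 40, the first exon of the short form, had 38.7 read equivalents in MIP101 and 71.8 in MIP/5FU. Its coverage was 9.64 and 32.1 per base, and it was 3.37-fold higher in the resistant line (2.26 to 5.14). It was the LAMA3 region with the highest ratio, at a log2 value of 1.75.

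The 37 exon regions common to both forms, 41 to 77, hold 5419 bases. They had 7063 read equivalents in MIP101 and 7088 in MIP/5FU, from libraries of different depth, so their coverage was 56.5 and 101.7 per base. This block was 1.83-fold higher in the resistant line (1.77 to 1.89). Single regions ran from 0.45 in exon 59 to 1.31 in exon 72, and none overlapped the range of the long-form regions. The long-form block differed from the shared block by -2.48 on the log2 scale, which is a 5.58-fold change in their ratio (5.07 to 6.15).

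**Figure D3:**
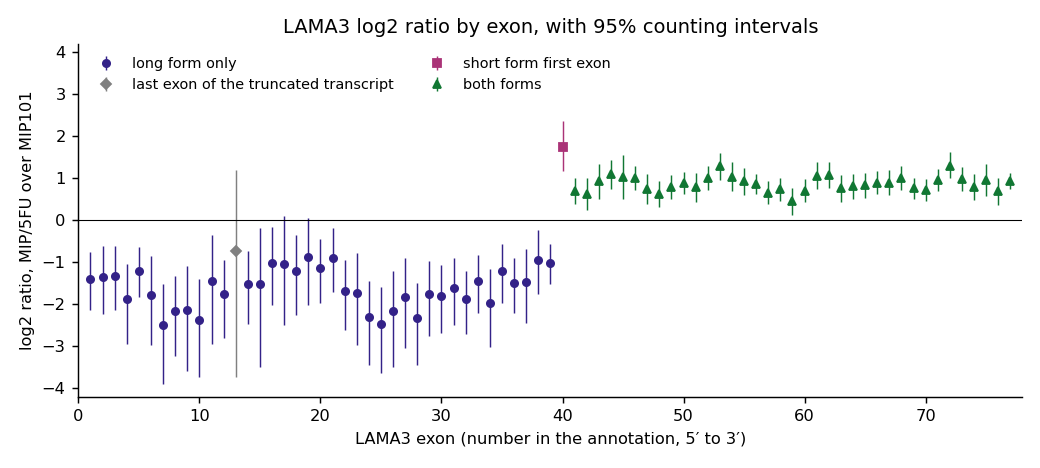
The log2 ratio of MIP/5FU over MIP101 for each LAMA3 exon with its 95% counting interval, by the form that holds the exon. Long-form exons lie between -2.50 and -0.88, exon 40 at 1.75 and the shared exons between 0.45 and 1.31.

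Exon 13 is the last exon of a truncated transcript, ENST00000399516, which stops there. Its coverage was 3.01 in MIP101 and 1.56 in MIP/5FU, but none of its 125 bases is unmasked in the authors' files, while its neighbours are fully unmasked, so its coverage is not set against theirs. The junction into it had 1 read in the parent and 0 in the clone. The log2 ratio of the exon, -0.74, had an interval of -3.73 to 1.21, so no difference was detectable.

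Within the long-form block the ratio was not even. Exons 1 to 12 were at -1.72, exons 14 to 34 at -1.69 and exons 35 to 39 at -1.21. The last 5 differed from exons 14 to 34 by 0.48 (0.13 to 0.82). The bounds of these exon groups were drawn after the values were seen, so the interval describes the difference and is no test of it. Over exons 35 to 39 the coverage was 33.1 in MIP101 and 14 in MIP/5FU, both above the mean of the whole block.

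Junction reads, which are counted apart from exon coverage, gave the same order. The 38 annotated long-form junctions held 641 reads in MIP101 and 135 in MIP/5FU, a log2 ratio of -1.38 (-1.66 to -1.11). The 36 shared junctions held 1360 and 1413 reads, at 0.92 (0.81 to 1.03). Long-form junctions had a median of 16 reads in MIP101 and 3 in MIP/5FU, and shared junctions 36 and 37.5.

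The 2 joins printed above read the forms directly. The short-form join of exon 40 to exon 41 had 16 reads in the parent and 31 in the clone, which was 3.48-fold higher in the clone (1.88 to 6.92). The long-form join of exon 39 to exon 41 had 12 and 4 reads, at a log2 ratio of -0.61 (-2.81 to 1.00), so on its own it did not differ beyond counting error. The long form made up 42.9% of the reads on both joins in the parent, with a 95% interval of 24.5 to 62.8 by the exact method of Clopper and Pearson. In the clone it made up 11.4%, with an interval of 3.2 to 26.7. The ratio of long-form to short-form join reads was 5.30-fold lower in the clone, with a counting interval of 1.42 to 28.0.

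Coverage gave a like share with more reads behind it. Coverage of the long-form block was 48.0% of that of the shared block in MIP101 and 8.60% in MIP/5FU. With the 5 exons on each side of exon 40 in place of whole blocks, the shares were 58.7% and 13.9%. The coverage left after taking the long-form block from the shared block was 29.4 per base in MIP101 and 93.0 in MIP/5FU, or 3.16-fold more in the clone by this arithmetic, beside the 3.37-fold of exon 40 itself. In MIP101 the long form was thus at 42.9% by join reads and at 48.0% and 58.7% by coverage, so equal amounts are not established. In MIP/5FU most LAMA3 coverage was of the short form. The coverage shares take coverage as even along each transcript, which was not tested. Exon 40 itself had a coverage below the remainder from subtraction, at 9.64 and 32.1 per base. The long-form block was at 27.1 and 8.75.

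The authors' boundary features span the edge between an exon and the intron beside it. The boundary at the 5′ end of exon 40, from 19706972 to 19707035, had 36 reads in the parent and 58 in the clone, a log2 ratio of 1.55 (0.93 to 2.20). It is listed with no supporting Ensembl transcript or mRNA and with 1 EST. It was the only one of 152 LAMA3 boundaries with at least 20 reads over both libraries. Reads thus ran upstream of the annotated start of exon 40 in both lines. GENCODE gives the short transcript a first exon of 376 bases, against 174 in the annotation used here.

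Subtracting the gene's log2 ratio from that of one of its features gives the splicing index. A feature was counted where the index was 1 or more in size and its counting interval, at a confidence level of 0.999, left out 0. This was done for exon regions and transcripts with at least 50 read equivalents and junctions with at least 20 reads. Over the 9 laminin genes, 281 of 475 exon regions could be tested, of which 2 were counted higher and 34 lower. Over all genes 0.164% of exon regions were counted higher and 0.111% lower. All 34 lower ones were long-form regions of LAMA3, out of 35 tested, and exon 40 of LAMA3 was 1 of the 2 higher, with an index of 1.30. None of the 37 shared regions was counted, and 6 of them were counted higher when the limit was lowered to 1.5-fold. Since LAMA3 was chosen for this pattern, nothing is read from these counts against the background.

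Of 256 laminin junctions tested, 1 was counted higher and 5 lower, beside 0.0559% and 0.0997% of all junctions, and all 6 were in LAMA3. The lowest was the join of exon 31 to exon 32, with 33 reads in the parent and 1 in the clone and an index of -4.07 (-15.64 to -1.11). The joins of exon 32 to 33 (19 and 1 reads) and of exon 4 to 5 (23 and 2 reads) came next. The joins of exon 6 to 7 and of exon 29 to 30 were the other 2 lower ones. The higher one was the shared join of exon 44 to 45, with 29 and 51 reads and an index of 1.22. That call was lost, with 0 junctions counted higher, when the median of the gene's junctions stood for the gene. The short-form join had a higher index, 1.35, but its interval of -0.11 to 3.01 took in 0.

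Of 11 laminin transcripts tested through their specific features, 1 was counted higher and 1 lower, beside 0.5% and 0.191% of all transcripts. Both were LAMA3 transcripts. The features specific to the long form had 2634 read equivalents in the parent and 506 in the clone, for an index of -1.97. Those of the short form had 54.4 and 102.6, an index of 1.32. LAMA3 junctions outside the annotation were few: 39 of 2850 had any read, with 35 reads in the parent and 18 in the clone, and no more than 5 on one junction.

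Outside LAMA3, 5 laminin genes had enough coverage to compare their exon regions. LAMA1 and LAMA2 had 0 regions that passed the minimum, and LAMA4 had 1. LAMA5 had 82 tested exon regions with an index between -0.19 and 0.29, and LAMC1 had 28 between -0.19 and 0.18. The 35 tested regions of LAMB2 lay between -0.26 and 0.36, and the 25 of LAMB3 between -0.32 and 0.64. None of the tested regions of these 4 genes was counted. The 37 tested regions of LAMB1 ran from -0.71 in region 1d, which was not counted, to 1.09 in region 2a. Region 2a was the one counted region outside LAMA3. It lies on chromosome 7 from 107429414 to 107429708 and starts the transcript ENST00000393561. It had 49.1 read equivalents in MIP101 and 62.8 in MIP/5FU and an index interval of 0.17 to 2.04. Its coverage of 7.21 and 16.5 per base was small beside the 253.0 and 271.5 of LAMB1 as a whole.

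**Figure D4:**
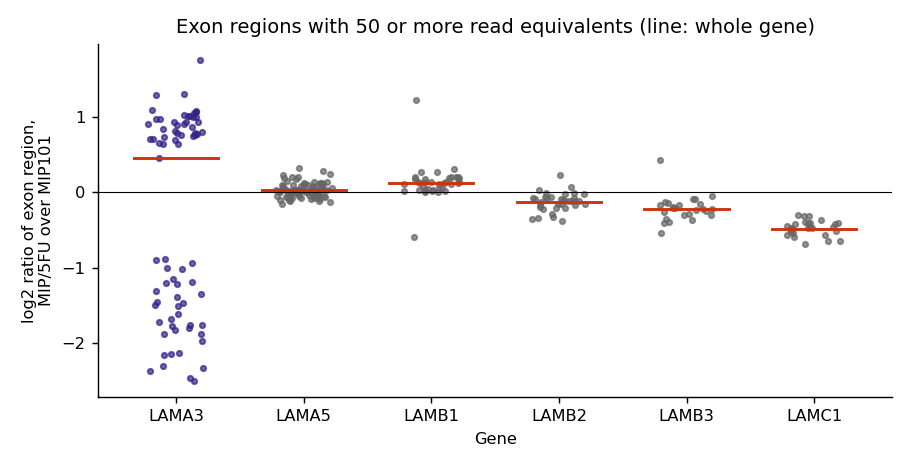
The log2 ratio of each exon region with at least 50 read equivalents (points, spread sideways for visibility) in the 6 laminin genes above 1 RPKM, with the ratio of the whole gene as a line. LAMA3 regions fall into 2 groups on either side of 0, and regions of the other genes lie close to their gene's line apart from 2 LAMB1 regions at -0.59 and 1.22 and a LAMB3 region at 0.42.

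A few features of the other chains had large differences on few reads. A LAMB3 junction that skips exon 18, listed with no supporting transcript, mRNA or EST, had 26 reads in the parent and 2 in the clone. Its index was -2.32 with an interval of -8.66 to 0.26, so it was not counted. The LAMB2 join of exon 28 to the second acceptor of exon 29 had 12 and 19 reads and an index of 1.64 (-0.15 to 3.65). By the limits used for junctions, 2 of 87 laminin boundaries tested were counted higher and 0 lower, beside 0.741% and 0.122% of all boundaries. They were the one at exon 40 of LAMA3 and E1_Ab of the first exon of LAMA5, with 22 and 34 reads and an index of 1.45 (0.13 to 2.88). Larger indices on fewer reads were not counted: the LAMA5 boundary E51_Da had 21 and 1 reads and an index of -3.01 (-14.59 to 0.08), and the LAMB2 boundary E18_Aa had 6 and 14 reads and an index of 2.16 (-0.11 to 5.13).

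To see how unusual a gene with unequal ends is in these libraries, each gene was split at the middle of its row of exon regions into a 5′ and a 3′ side. The sides were compared in 7207 genes with at least 10 regions and 100 read equivalents in each side. The 5′ side of LAMA3 was at -1.65 and the 3′ side at 0.85, a difference of -2.50. This was the 10th lowest value, and 0.416% of genes had a 5′ side at least 2-fold lower than the 3′ side. Among 373 genes with 40 or more regions, 2 had a lower value. The middle 95% of the 7207 genes ran from -0.39 to 0.43. The other 6 laminin genes that could be compared lay inside it: LAMB2 was at -0.12, LAMA1 at -0.09, LAMB3 at -0.08, LAMA5 at -0.07 and both LAMB1 and LAMC1 at 0.02. LAMA3 was chosen for this contrast, so its rank is a description.

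**Figure D5:**
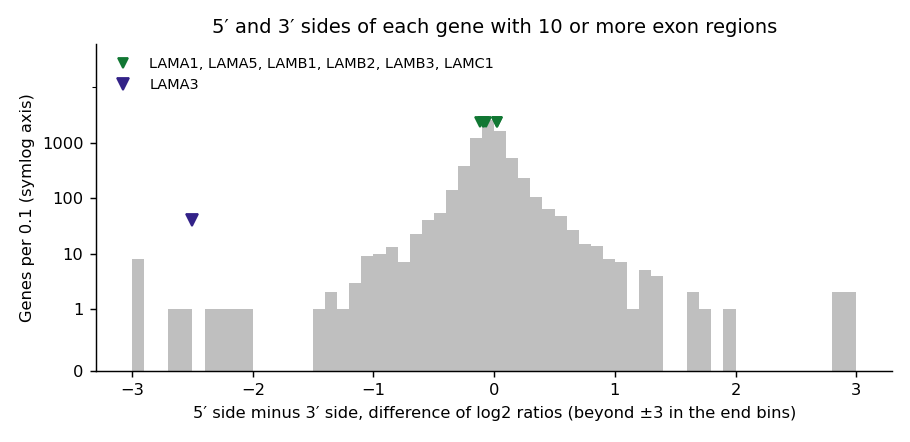
Number of genes (symlog axis) by the difference of log2 ratios between the 5′ and 3′ side of their exon regions, in bins of 0.1, with values beyond 3 in either direction placed in the end bins. Triangles mark the laminin genes, at heights with no meaning: LAMA3 at -2.50 and the other 6 between -0.12 and 0.02.

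Partners of laminin were read from gene lists that were chosen with earlier results of these data known. Among all genes tested 2.53% were counted higher and 3.09% lower. No result about a list is read from its counts. All 8 laminin-binding integrin subunits had at least 100 reads, and 0 were counted in either direction, with a median of 0.08. ITGA1, a collagen and laminin receptor subunit, had 2776 reads in the parent and 783 in the clone and was 1.94-fold lower. ITGB1, the common beta subunit, and ITGA6, which pairs with ITGB4 in hemidesmosomes, were 1.28-fold and 1.25-fold higher, and ITGA2 was 1.25-fold lower.

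Of 9 other receptors and partners, 8 were tested and 1 was counted higher, with a median of 0.13. CD44, a hyaluronan receptor of the cell surface, had 4792 and 8388 reads and was 3.19-fold higher in MIP/5FU (3.08 to 3.31). DAG1, which encodes dystroglycan, was 1.40-fold lower with 80656 and 31603 reads. GPC1, a heparan sulfate proteoglycan of the cell surface, was 1.35-fold higher, and CD151, a tetraspanin that binds laminin receptors, 1.21-fold higher.

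Of 25 other basement membrane components 15 were tested, with a median of 0.13. Of these, 2 were counted higher and 3 lower, beside 2.53% and 3.09% of all genes tested. COL4A1, a collagen IV chain, had 2527 reads in the parent and 2 in the clone, a log2 ratio of -9.11 (-12.48 to -7.58). COL4A2, its partner chain and head-to-head neighbour, had 2309 and 415 reads and was 3.05-fold lower. SPARC, a collagen-binding matrix protein, had 365 and 73 reads and was 2.73-fold lower. NTN4, a netrin that binds laminin gamma chains, had 350 and 480 reads and was 2.50-fold higher, and COL17A1, the hemidesmosomal collagen, had 1415 and 1622 reads and was 2.09-fold higher. COL17A1 was named because it was counted, after its values were seen, and not by the rule of the 4 largest ratios.

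The 4 tested hemidesmosome linker genes had 0 counted, with a median of 0.13. KRT18 and KRT8, keratins of simple epithelia, were 1.19-fold and 1.16-fold higher, while the linkers PLEC1 and DST were at log2 ratios of 0.04 and -0.03. Of 6 annotated markers of basal keratinocytes, in which LAMA3 is abundant, 2 had at least 100 reads, and the list summed to 8.03 RPM in MIP101 and 16.2 in MIP/5FU. The 2 were COL17A1, counted higher, and the keratin KRT15, with 104 and 111 reads and a 1.95-fold higher level that is under the 2-fold limit. COL17A1 made up most of the sum, at 7.07 and 14.8 RPM. The defining keratins were low, KRT5 at 22 and 9 reads and KRT14 at 1 and 0. TP63 had 10 and 3 reads, and DSG3 had 56 and 29, at a log2 ratio of -0.07. The part of such cells in the LAMA3 values was not tested.

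Of 6 tested laminin-processing proteases 1 was counted, with a list median of 0.01. TLL2, a tolloid-like protease, had 168 reads in the parent and 31 in the clone and was 2.93-fold lower. PLAU, the urokinase gene, was 1.45-fold higher, PLAT, the tissue plasminogen activator, 1.29-fold lower, and ST14, the membrane protease matriptase, 1.17-fold higher.

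All 9 annotated genes for dystroglycan glycosylation were tested and 1 was counted, with a median of 0.09. LARGE, whose product adds the sugar chain that binds laminin, had 1607 reads in the parent and 2302 in the clone and was 2.61-fold higher. TMEM5, a xylosyltransferase of the same chain, was 1.67-fold lower, POMGNT1 1.55-fold higher and POMT2 1.29-fold lower. The gene for dystroglycan itself was lower, as given above.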

How the data were processed

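The 2 libraries of polyadenylated RNA came from MIP101 and MIP/5FU. The cDNA was made from random hexamers, sheared, amplified by 10 PCR cycles and read as paired 42-base or 36-base reads, per the labels. No strand was marked. The authors assigned reads to Ensembl 53 genes, exon regions, junctions, boundaries and transcripts on hg18 (submitters' processing notes). Their aligner was not given in the sources used here. For genes, junctions and boundaries the deposited values are raw read counts. The coverage signal per base in all files was normalized between libraries by the authors. The coverage column of each region, as deposited, was divided by bases per read to give read equivalents.

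Log2 ratios and exact conditional binomial intervals were computed in Python 3.11.15 with scipy 1.17.1, and TMM factors with edgeR 4.0.16. The index interval takes the gene's ratio as fixed. With 1 library per line there is no test, no p-value and no replicate. The scripts were tested on simulated data. The members and the gene lists were chosen with earlier results of these data known. Named were all 9 laminin genes, their counted features, and up to 4 tested genes of each partner list with the largest absolute ratio. Read counts limit precision: the reads of a pair and PCR copies are not independent molecules. The intervals cover counting error only and take each read as independent, so they can be too narrow even for that. Alternatives changed the scaling, the read minimum, the fold, the added reads and the way LAMA3 was summed.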

Additional observations from a re-analysis of the deposited data

How the results depend on the processing

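Of 69 values recomputed under another setting, 51 stayed within their limits. Some of these settings, such as a lower read minimum for genes, could not change the value. A reversed direction could be scored only for the LAMA2 ratio and the LAMA3 block difference, and neither reversed. LAMA2 was the counted gene in the main analysis, and 0 laminin genes were counted lower with a minimum of 500 reads or at 4-fold. The 0 counted higher held at 1.5-fold and with the authors' normalized coverage. The other alternatives could not raise that count. They lowered every ratio, tightened the rule or relaxed a read minimum that all 9 genes already passed. Among 36 ratios of single genes the largest shift was 0.14, and 1 changed sign, that of LAMA5 under TMM scaling. The LAMA3 difference between the long-form and shared blocks was -2.30 from junctions in place of -2.48. It stayed between -2.46 and -2.49 under the other 4 settings. The 36 laminin exon regions counted became 19 with a minimum of 100 reads and 19 at an absolute index of 2. At an index of log2 of 1.5 they were 42, with 8 higher in place of 2, of which 6 were shared regions of LAMA3. The 6 junctions became 1 with a minimum of 50 reads and 10 when the median of the gene's junctions stood for the gene. In that last setting, and at an absolute index of 2, 0 junctions were counted higher. The 5′ minus 3′ value of LAMA3 was -2.50 from its outer regions alone, as from all regions.

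No paired analysis was possible because each line has 1 library. There was no replicate to leave out. LAMA1, LAMA2 and LAMA4, each under 300 reads in either line, are limited by depth, as are the 2 joins into exon 41 of LAMA3, with at most 31 reads each.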
